A study of Mus musculus with 8 samples.

Results

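Ribosome biogenesis and nucleolar genes encode the machinery that makes ribosomes: the polymerase that transcribes ribosomal RNA in the nucleolus, the particles that modify and cut it, and the factors that assemble it with ribosomal proteins. A set of 48 such genes was read here, out of 18193 mouse genes with a probe set on the array. They were named one by one with no rule on their signals, but with earlier results of these data known. Each gene was represented by 1 probe set, the brightest on average (mean log2) of those annotated to that gene alone. All 48 genes had such a probe set, and 47 of them were bright enough to be among the 11746 genes tested. They fall into 7 roles: RNA polymerase I and its regulators (8 genes), the box C/D particle (4), the box H/ACA particle (4), the small subunit processome (14), late small subunit maturation (3), large subunit assembly (11) and abundant nucleolar proteins (4).

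The study measured polyadenylated RNA on 8 Affymetrix mouse arrays, from 3 stages and 2 genotypes, a knockout (KO) of connexin 43 and the wild type (WT). Connexin 43, encoded by Gja1, forms gap junctions, the channels that couple neighbouring cells. MII oocytes (mature eggs arrested before fertilisation) and implantation sites had 1 array per genotype, and blastocysts, the embryos that implant, had 2 per genotype. The title describes an oocyte-directed depletion of connexin 43 with blastocysts derived from the depleted mice and ties their implantation failure to genes of the ribosome and of translation, and the design asks how the loss alters the transcriptome at each stage. The labels name no strain, age, Cre driver, deleted exon or genotype of the father, and do not say whether cells or animals were pooled. Nothing in them says that the 2 blastocyst replicates came from separate animals, so p-values may measure only technical spread between arrays. A value is a signal intensity, on a linear scale that the authors' software set to the same trimmed mean on every array, so each level is relative to the rest of its own array. The samples are bulk RNA, in which fewer cells of a type and less RNA per cell cannot be told apart.

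The nucleolus forms around active ribosomal RNA genes. RNA polymerase I transcribes a long precursor there, small nucleolar particles guide methylation (box C/D) and pseudouridylation (box H/ACA) of it, and a large complex, the processome, folds and cuts the part that becomes the small subunit, while other factors build the large subunit around the rest. The fully grown egg is known to be transcriptionally silent and to live on stored RNA, and the embryo resumes ribosomal RNA synthesis after fertilisation, when its nucleolar precursor bodies turn into working nucleoli.

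Background on each array was read from 15 control probe sets for Bacillus genes, and a signal at or below the brightest of them is called at control level here. That level ran from 100 to 560 over the arrays, and was 334 on the KO and 132 on the WT oocyte array. On every array, 32 of the 48 genes were above it. In oocytes 33 were above it on both arrays, in blastocysts 40 on all 4, and at implantation sites 47 on both. Rrp9, a box C/D protein that belongs to the U3 particle, was at control level on all 8 arrays and did not pass the filter. Marker genes matched the label of oocytes and blastocysts, with 8 of 9 oocyte markers above control level on both oocyte arrays and 10 of 10 blastocyst markers on all 4 blastocyst arrays. At implantation sites, whose source label calls the material embryo, 9 and 10 of 10 uterus and decidua markers were above it. That count was also 9 on the WT oocyte array and 8 on the second WT blastocyst array, so it does not set implantation sites apart. The summed signals of these markers did, at 114080 and 101402 against at most 3445 elsewhere. Blastocyst markers summed to 4882 and 3108 at implantation sites against 47685 to 65200 in blastocysts. The signal ratio of 3' to 5' probe sets for Actb ran from 6.68 on the KO oocyte array to 69.3 on the first WT blastocyst array, and was 33.4 on the WT oocyte array. Gja1 read 375 and 553 on the KO and 9835 and 574 on the WT blastocyst arrays, so the array labelled WT replicate 2 lay near the KO. In oocytes it read 150 on the array labelled KO and 126 on that labelled WT, both at control level. Its further probe sets disagreed there. One read 353, above control level, on the KO and 61.4 on the WT array, and another 11.8 and 125. Gja1 thus does not tell those labels apart. At implantation sites it read 28105 and 44493, bright on both.

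**Figure D1:**
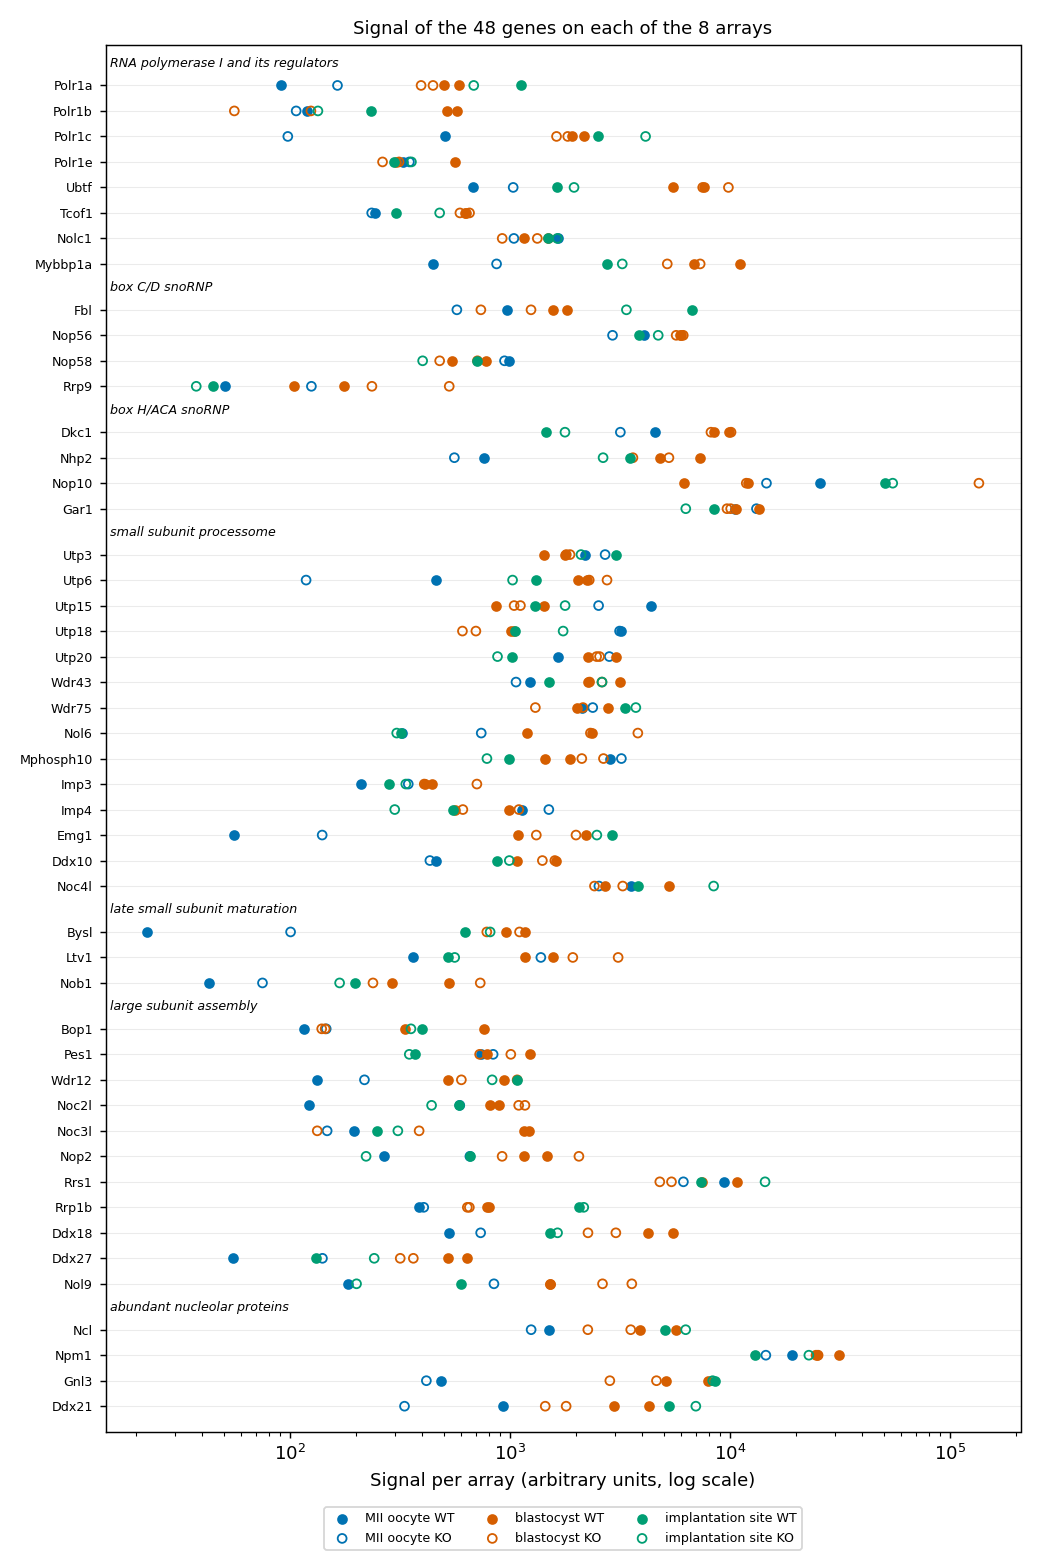
Signal of each of the 48 genes on each of the 8 arrays, with genes in rows ordered by role and signal on a log axis in arbitrary units; each point is 1 array, coloured by stage, filled for WT and open for KO. Emg1 and Bysl have both oocyte points far to the left of all later arrays, Utp18 has them to the right, and Rrp9 lies low throughout.

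Blastocysts were first set against oocytes, to see how these genes stood before and after the embryo's own transcription began. Because polyadenylated RNA was measured, more RNA of a gene and a larger share of it polyadenylated cannot be told apart. The part of each in comparisons with oocytes was not tested. Of the 47 genes tested, 25 were higher in blastocysts and 2 were lower, Utp18 and Utp15 (limma over all 8 arrays with genotype as a term, adjusted p under 0.05 over all genes). That is 53.2% higher and 4.26% lower, where over all 11746 genes 26.9% were higher and 18.6% lower. The median log2 difference was 1.26 over the 47 genes and 0.43 over all genes. The gap between these medians was 0.83, and it ran from 0.48 to 1.13 over 17 settings (other scalings, probe set choices, filters and left-out arrays). A common median moved the median of all genes to 0.26 and that of the 47 to 1.10. That scaling, fits without the intensity trend or with 6 groups, and leaving out an implantation array cannot change the gap by construction. The median was 1.06, against 0.20 over all genes, in the fit without the WT oocyte array, which leaves the KO oocyte array alone. Without the WT oocyte array only 16 of the 25 genes passed, and Nob1, Nol9, Noc2l, Nop2, Polr1a, Ddx27, Ltv1, Ncl and Tcof1 were lost, as was the fall of Utp15.

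By role, 3 of 3 late small subunit factors, 3 of 4 abundant nucleolar proteins, 5 of 8 genes of polymerase I and 6 of 11 of large subunit assembly rose. In the box H/ACA particle 2 of 4 rose, in the processome 5 of 14 rose and 2 fell, and in the box C/D particle 1 of 3 rose. The differences between roles were not tested.

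**Figure D2:**
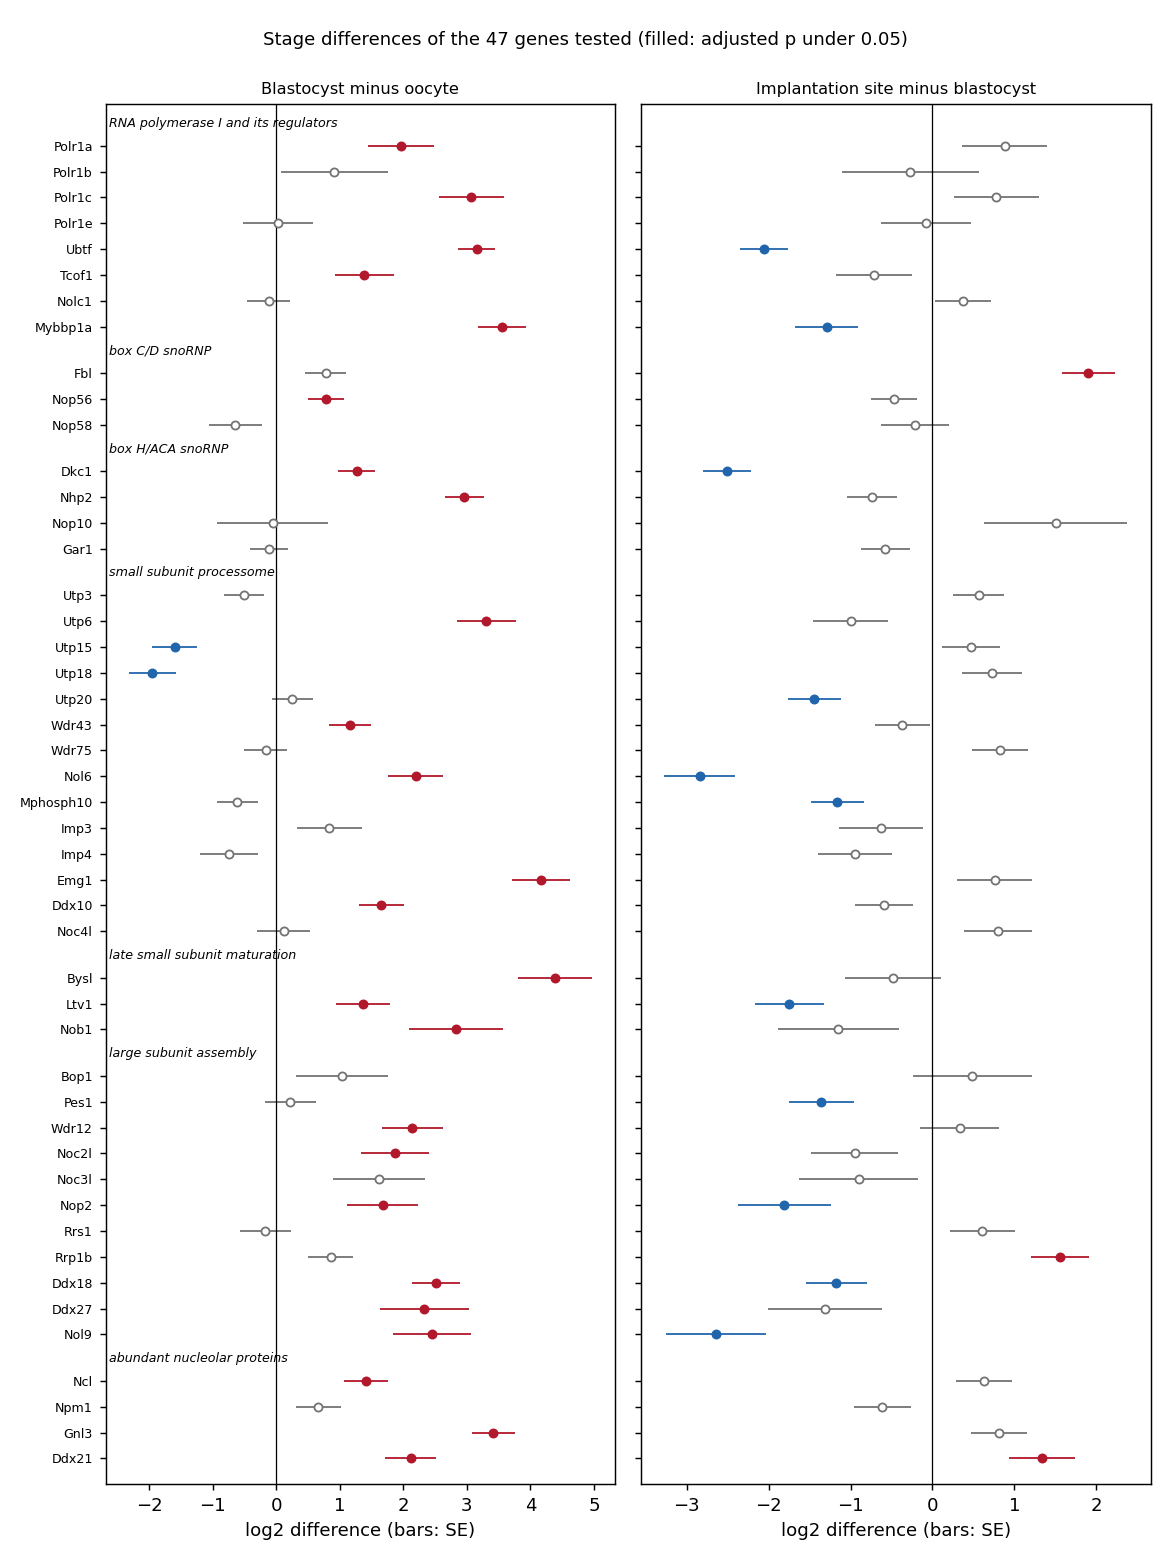
Log2 difference of each of the 47 genes tested, blastocysts against oocytes in one panel and implantation sites against blastocysts in the other; points are fitted differences, bars are standard errors, and filled points passed an adjusted p of 0.05. Most filled points lie to the right of 0 in the first panel, with Utp18 and Utp15 to the left, and 11 of the 14 filled points lie to the left in the second.

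Sequence upstream of the start sites is shown for the gene with the largest fitted rise in blastocysts in each of 4 roles, and for both genes that fell, to set genes that moved opposite ways side by side. Each run is the 150 bases before the start of transcription, 5′ to 3′ on the gene's strand, from the RefSeq promoter table on GRCm38.p6, and capitals mark a match to 1 of 5 motifs on either strand.
Bysl, chr17:47611493-47611642, minus strand: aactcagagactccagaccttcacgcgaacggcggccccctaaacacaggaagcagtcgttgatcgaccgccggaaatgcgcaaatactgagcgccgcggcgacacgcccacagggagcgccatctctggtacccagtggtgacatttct
Emg1, chr6:124712179-124712328, minus strand: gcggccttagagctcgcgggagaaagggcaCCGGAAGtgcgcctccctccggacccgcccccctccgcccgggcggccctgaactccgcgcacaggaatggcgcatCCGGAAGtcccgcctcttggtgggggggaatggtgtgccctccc
Mybbp1a, chr11:72441177-72441326, plus strand: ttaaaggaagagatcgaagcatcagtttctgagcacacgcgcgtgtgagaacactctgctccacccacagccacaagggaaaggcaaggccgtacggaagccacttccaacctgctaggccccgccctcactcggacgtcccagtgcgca
Gnl3, chr14:31019132-31019281, minus strand: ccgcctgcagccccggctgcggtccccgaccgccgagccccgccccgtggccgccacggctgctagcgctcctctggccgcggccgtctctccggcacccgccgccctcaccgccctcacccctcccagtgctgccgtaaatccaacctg
Utp15, chr13:98262993-98263142, minus strand: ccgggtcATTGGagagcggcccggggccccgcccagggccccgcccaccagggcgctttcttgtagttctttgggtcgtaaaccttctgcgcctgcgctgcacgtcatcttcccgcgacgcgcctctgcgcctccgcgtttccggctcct
Utp18, chr11:93885767-93885916, minus strand: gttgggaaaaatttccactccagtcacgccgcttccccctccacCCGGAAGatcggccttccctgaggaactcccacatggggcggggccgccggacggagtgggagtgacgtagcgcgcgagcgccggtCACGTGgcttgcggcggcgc
The motifs searched were CACGTG (the E-box that Myc and related factors read), CCGGAAG (ETS factors), GCATGCG (a core of the NRF1 site), CCAAT (NF-Y) and AAGATGG (YY1). Among the 6 runs, Emg1 held the ETS letters at 2 places, Utp18 held an ETS and an E-box match, Utp15 held CCAAT on the other strand, and Bysl, Mybbp1a and Gnl3 held none in these 150 bases.

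A window of 300 bases around the start was in the table for 41 of the 48 genes. The ETS letters stood in 15 of the 41 (36.6%), against 9.9% of 27025 genes in the table and 18.9% of the 9465 tested genes with a window. The E-box stood in 8 (19.5%), against 8.1% and 11.4%. For CCAAT the shares were 46.3%, 41.1% and 42.5%, for the NRF1 core 9.8%, 4.0% and 7.0%, and for AAGATGG 2.4%, 7.3% and 8.3%. Among the 22 risen genes with a window 8 held the ETS letters and 4 the E-box, so both motifs occur in genes that rose and in genes that did not. A match is a description of letters, not of a bound site.

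RNA polymerase I was read through its subunits and the proteins that steer it. Values are given here and below with the KO array or arrays before the WT. Mybbp1a, a nucleolar protein that acts in ribosomal RNA transcription and processing, read 870 and 449 in oocytes, 5194, 7328, 11131 and 6856 in blastocysts, and 3242 and 2768 at implantation sites. Its rise from oocyte to blastocyst was 3.55 on the log2 scale (SE 0.38, adjusted p = 1.98e-05), 11.7-fold, and the stages did not overlap. Ubtf, the upstream binding factor that opens ribosomal RNA genes for the polymerase, read 1035 and 679, then 9850, 7526, 7663 and 5516, then 1957 and 1644. It rose 8.92-fold (3.16, SE 0.29, adjusted p = 7.69e-06), with every blastocyst array above every other array.

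Subunits of the enzyme itself differed from one another. Polr1c, which RNA polymerase III shares, read 97.8 and 509 in oocytes, 1832, 1629, 2170 and 1914 in blastocysts and 4139 and 2505 at implantation sites. The oocyte arrays were below all others, with the KO one at control level, and the fitted rise to blastocysts was 3.07 (SE 0.52, adjusted p = 0.000512). Polr1a, the largest catalytic subunit, was at control level on both oocyte arrays (164 and 90.8), read 447, 395, 502 and 585 in blastocysts, where 1 array was at control level, and 685 and 1128 at implantation sites. The fitted rise was 1.96 (adjusted p = 0.00931), and no fold is given for it. A further bright probe set of Polr1a gave -0.30, so its probe sets disagree. Tcof1, the treacle protein that recruits the polymerase, passed at 1.39 (adjusted p = 0.0296), while 1 of its further bright probe sets read -0.66 and the other 1.90. Polr1b, Polr1e and Nolc1, a chaperone of small nucleolar particles, did not pass, at 0.92, 0.03 and -0.12.

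The guide particles supplied 3 of the 25 rises. In box C/D, Nop56, a core protein, read 2928 and 4057 in oocytes, 6139, 5700, 5951 and 6000 in blastocysts and 4724 and 3880 at implantation sites. The blastocyst arrays were the highest and lay close together, and the rise of 0.79 (SE 0.28) passed narrowly (adjusted p = 0.0392). Fbl, the methyltransferase fibrillarin, read 574 and 965, then 738, 1248, 1578 and 1813, then 3386 and 6720, so that oocytes and blastocysts overlapped and implantation sites were above both. Its first difference, 0.78 (SE 0.33), did not pass (adjusted p = 0.0736). Nop58, the partner of Nop56, gave -0.65 and did not pass.

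In box H/ACA, Nhp2, a core protein, read 559 and 762 in oocytes, 3625, 5285, 7306 and 4794 in blastocysts and 2653 and 3510 at implantation sites. Its rise of 2.96 (SE 0.31, adjusted p = 1.68e-05) was 7.80-fold with no overlap. Dkc1, the pseudouridine synthase dyskerin, read 3178 and 4568, then 10124, 8204, 9945 and 8514, then 1780 and 1465, and rose by 1.26 (SE 0.29, adjusted p = 0.00407) before its lower values at implantation sites. Its 2 further bright probe sets gave -2.82 and 4.40 for the same step, so the direction for Dkc1 depends on the probe set. Gar1 read 13211 and 10548, then 9706, 10084, 13579 and 10688, then 6304 and 8482, and gave -0.11. Nop10 read 14670 and 25642 in oocytes, 11875, 135599, 6190 and 12114 in blastocysts and 55005 and 50750 at implantation sites, with the second KO blastocyst array far above the others. Neither passed.

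The small subunit processome held the 2 falls beside its rises. Emg1, a methyltransferase of small subunit RNA whose upstream run is shown above, was at control level on both oocyte arrays (140 and 55.4) and read 1318, 1998, 1088 and 2221 in blastocysts and 2485 and 2905 at implantation sites. Counted from the control level of the oocyte arrays, it was at least 7.56-fold higher in blastocysts (fitted rise 4.17, SE 0.46, adjusted p = 2.48e-05). Utp6 read 118 and 463, then 2295, 2764, 2239 and 2042, then 1028 and 1313, and rose by a fitted 3.31 (SE 0.46, adjusted p = 0.000136). Its KO oocyte array was at control level, and a further bright probe set gave 0.36. Nol6 read 741 and 322, then 2323, 3817, 1195 and 2373, then 306 and 319, and rose by 2.20 (SE 0.43, adjusted p = 0.00155). Its only other bright probe set gave -0.56, the opposite direction.

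Utp18 moved the other way, from 3152 and 3188 in oocytes to 609, 701, 1042 and 1014 in blastocysts, with 1746 and 1052 at implantation sites. It was 3.87-fold lower in blastocysts (-1.95, SE 0.37, adjusted p = 0.00116), and the lowest oocyte array was above every later array. Utp15, named here because it is the only other fall, read 2531 and 4373, then 1045, 1117, 1427 and 869, then 1783 and 1298, and was 3.03-fold lower in blastocysts (adjusted p = 0.00344). A further probe set of Utp15 gave 1.15. As background, Utp15 belongs to the UTP-A subcomplex of the processome, and Utp18 to UTP-B, as does Utp6, which rose.

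Among the other processome genes, Ddx10 (1.65), an RNA helicase, and Wdr43 (1.16) also rose. The remaining genes of that role did not pass and lay between -0.74 (Imp4) and 0.83 (Imp3). Noc4l read 2538 and 3567, then 2424, 3257, 5273 and 2704, then 8439 and 3827, and Wdr75 read 2381 and 2117, then 1306, 2149, 2800 and 2027, then 3737 and 3344. In both, oocytes and blastocysts overlapped.

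All of the late small subunit factors rose. Bysl, the human counterpart of which is called bystin and which acts in export of the small subunit precursor, was at control level on both oocyte arrays (101 and 22.4), against 1106, 785, 1169 and 961 in blastocysts and 813 and 624 at implantation sites. It was at least 4.73-fold higher in blastocysts (fitted rise 4.39, SE 0.58, adjusted p = 9.94e-05), and its other bright probe set gave 4.35. Nob1, the endonuclease that makes the final cut in small subunit RNA, read 75 and 43, then 239, 733, 291 and 529, then 168 and 198 (fitted rise 2.83, adjusted p = 0.00851). Both oocyte arrays and the first KO blastocyst array were at control level, so no fold is given. Ltv1, an export factor of the small subunit, read 1383 and 362, then 3105, 1932, 1167 and 1564, then 561 and 525. It passed at 1.36 (SE 0.43, adjusted p = 0.0213), yet its KO oocyte array was above a WT blastocyst array, so the stages overlapped.

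In large subunit assembly, helicases were among the rises. Ddx18, an RNA helicase, read 736 and 529 in oocytes, 2265, 3032, 5513 and 4253 in blastocysts and 1647 and 1517 at implantation sites. It rose 5.71-fold (2.51, SE 0.37, adjusted p = 0.000215), and a further bright probe set gave 3.10. Nol9, a polynucleotide kinase that acts on a spacer cut, read 846 and 184, then 3583, 2637, 1530 and 1515, then 201 and 597, and rose by 2.45 (SE 0.61, adjusted p = 0.00640). Ddx27, another helicase, read 141 and 55.1, then 317, 364, 522 and 641, then 242 and 131. Its fitted rise was 2.33 (adjusted p = 0.0174), but only the WT arrays of blastocysts were above control level, as neither oocyte array was, so no fold is given.

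Wdr12, Bop1 and Pes1 form the complex that processes the large subunit precursor, and of these only Wdr12 passed. Wdr12 read 218 and 133, then 602, 1079, 523 and 942, then 830 and 1082, and rose by a fitted 2.14 (SE 0.48, adjusted p = 0.00355), with the KO oocyte array at control level. Bop1 gave 1.04 and Pes1 0.22, and neither passed. Both oocyte and both KO blastocyst arrays of Bop1 were at control level. A further bright probe set gave 0.66 for Wdr12 and 1.72 for Pes1, and differences between these genes were not tested. Noc2l (1.87) and Nop2 (1.67), an RNA methyltransferase, also rose, whereas Noc3l (1.61, adjusted p = 0.0920) and Rrp1b (0.86, adjusted p = 0.0695) did not pass. Rrs1, which helps to place a further ribosomal RNA in the large subunit, read 6149 and 9433, then 4803, 5428, 10794 and 7463, then 14453 and 7385, with overlap throughout.

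Among the abundant nucleolar proteins, Gnl3, the GTP-binding protein nucleostemin, read 417 and 488 in oocytes, 2847, 4638, 7916 and 5121 in blastocysts and 8354 and 8590 at implantation sites. It rose 10.7-fold to blastocysts (3.41, SE 0.34, adjusted p = 1.27e-05), with no overlap. Ddx21, a helicase that couples polymerase activity to RNA processing, read 332 and 927, then 1802, 1448, 4308 and 2967, then 7004 and 5271, and rose by a fitted 2.12 (SE 0.40, adjusted p = 0.00118), with the KO oocyte array at control level. Ncl, or nucleolin, read 1249 and 1503, then 2261, 3543, 5710 and 3887, then 6297 and 5079, a rise of 1.41 (SE 0.35, adjusted p = 0.00578). Of the further bright probe sets of Ncl, 2 gave 2.36 and 2.39 and the third -1.24. Npm1, or nucleophosmin, read 14576 and 19164, then 24646, 25187, 31459 and 24909, then 22865 and 13075, and its 0.66 did not pass (adjusted p = 0.150).

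Agreement between probe sets limits these calls. Of the 27 genes that passed, 19 had at least 1 further probe set above the filter, 23 in all, and 17 of those 23 had the direction of the representing one. At least 1 pointed the other way in Polr1a, Tcof1, Dkc1, Utp15, Nol6 and Ncl. When all probe sets were averaged, 17 of the 25 rises remained, and 2465 of 9849 genes were higher. Ddx10, Dkc1, Nol6, Nol9, Nop56, Polr1a, Tcof1 and Wdr12 were lost, as was Utp15 among the falls. With probe sets without suffix alone, 18 of the 25 rises remained and 4 genes were lower, where 2398 of 9996 genes were higher and 1802 lower. Gnl3, Mybbp1a, Ubtf, Polr1c, Nol6, Nop56 and Wdr43 either did not pass or had no such probe set above the filter.

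Other genes of ribosome synthesis, from a list of 111 of which 101 were tested, divided 56 higher and 14 lower in blastocysts, with a median of 1.52. Their largest fitted rises were in Ruvbl2, an ATPase of particle assembly (5.44, SE 0.63), Nol7 (5.21), Wdr74 (4.36) and Wdr3 (4.33). Ruvbl2 and Wdr74 were at control level on both oocyte arrays, and Nol7 and Wdr3 on the KO one, so these sizes are uncertain. The largest falls were in Riok1, a kinase of late small subunit maturation (-4.18, SE 0.41), Nol10 (-2.74), Exosc3, a subunit of the RNA exosome (-2.74), and Brix1, a large subunit factor (-2.52). Riok1 read 10045 and 5834 in oocytes and 284, 419, 476 and 554 in blastocysts. Both KO blastocyst values of Riok1 were at control level, as were some blastocyst values of Nol10 and Exosc3. Of 42 cytosolic ribosomal proteins tested, 41 were higher and 0 lower, with a median of 3.41 (limma).

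Implantation sites were then set against blastocysts, a comparison that shares the blastocyst arrays with the previous one. Of the 47 genes, 3 were higher, Fbl, Rrp1b and Ddx21, and 11 were lower. That is 6.38% and 23.4%, where over all genes 15.3% were higher and 20% lower, so the share of falls lay near the background. The median was -0.48 over these genes and -0.35 over all genes. The markers of uterus and decidua given above move with this comparison, and their part in it was not tested. The medians moved with the implantation arrays. Without the KO one the median was -0.40 over these genes and -0.16 over all, and without the WT one -0.25 and -0.45. Each of those fits has 1 implantation array. Without the first WT blastocyst array 5 were higher (1801 of the 11746 genes). Without the intensity trend 7 were lower (2112 of the 11746 genes), and with probe sets without suffix 6 of 40 were higher (1401 of 9996 genes). The gap between the medians, -0.13, turned to 0.20 without the WT implantation array, so where these genes stand against all others at this step is not settled. Scaling arrays to a common median left 6 lower, where 1598 of the 11746 genes were. It moved the median of all genes from -0.35 to 0.00, and the share of higher among all calls from 43.3% to 56.4%.

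The largest fall was in Nol6, whose 306 and 319 at implantation sites were below both oocyte arrays (-2.84, SE 0.43, adjusted p = 0.000624). Nol9 fell 6.25-fold (-2.64, SE 0.61, adjusted p = 0.00673), Dkc1 5.67-fold (-2.50, SE 0.29, adjusted p = 0.000106) and Ubtf 4.17-fold (-2.06, SE 0.29, adjusted p = 0.000398). Ltv1 (-1.75), Nop2 (-1.81), Mybbp1a (-1.29) and Ddx18 (-1.17) also fell. These 8 genes are the ones that rose to the blastocyst and fell after it, 17% of the 47, where 10.1% of all genes had that pattern. A rise with no later change that passed was held by 16 (34%, against 14.8% of all genes), and neither step passed for 15 (31.9%, against 39.8%). Utp15 and Utp18 fell to the blastocyst with no later change that passed (10% of all genes). Both falling patterns beyond these, lower then higher (7.31% of all genes) and lower at both steps (1.25%), held 0 of the 47.

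A further 3 fell with no earlier difference that passed, Utp20, Pes1 and Mphosph10 (8.65% of all genes). Utp20, a large scaffold protein of the processome, read 2831 and 1646 in oocytes, 2556, 2479, 3040 and 2268 in blastocysts and 878 and 1022 at implantation sites (-1.44, SE 0.32, adjusted p = 0.00591). Pes1 read 839 and 742, then 728, 1010, 1237 and 789, then 349 and 371 (-1.36, SE 0.40, adjusted p = 0.0219). Mphosph10, a partner of Imp3 and Imp4 in the U3 particle, read 3213 and 2846, then 2663, 2123, 1445 and 1868, then 786 and 992 (-1.16, SE 0.32, adjusted p = 0.0173). In all 3 the implantation arrays were below every other array.

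Nop2 read 658 and 268 in oocytes, 2060, 922, 1155 and 1467 in blastocysts and 222 and 661 at implantation sites, so that oocytes and implantation sites covered the same range. Of the 3 that rose, Fbl was 3.74-fold higher (1.90, SE 0.33, adjusted p = 0.00122), and Ddx21 2.53-fold (1.34, SE 0.40, adjusted p = 0.0238). Rrp1b, a nucleolar protein of large subunit assembly, read 406 and 386, then 654, 640, 803 and 787, then 2167 and 2051 (1.56, SE 0.36, adjusted p = 0.00637). Ddx21 was the only gene of the 47 to rise at both steps, a pattern of 1.96% of all genes, while Fbl and Rrp1b rose at the second alone (6.04%). For Ddx21, Rrp1b, Dkc1 and Mphosph10 a further bright probe set pointed the other way, and 5 of 11 further probe sets of the genes called at this step had the direction of the representing one.

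**Figure D3:**
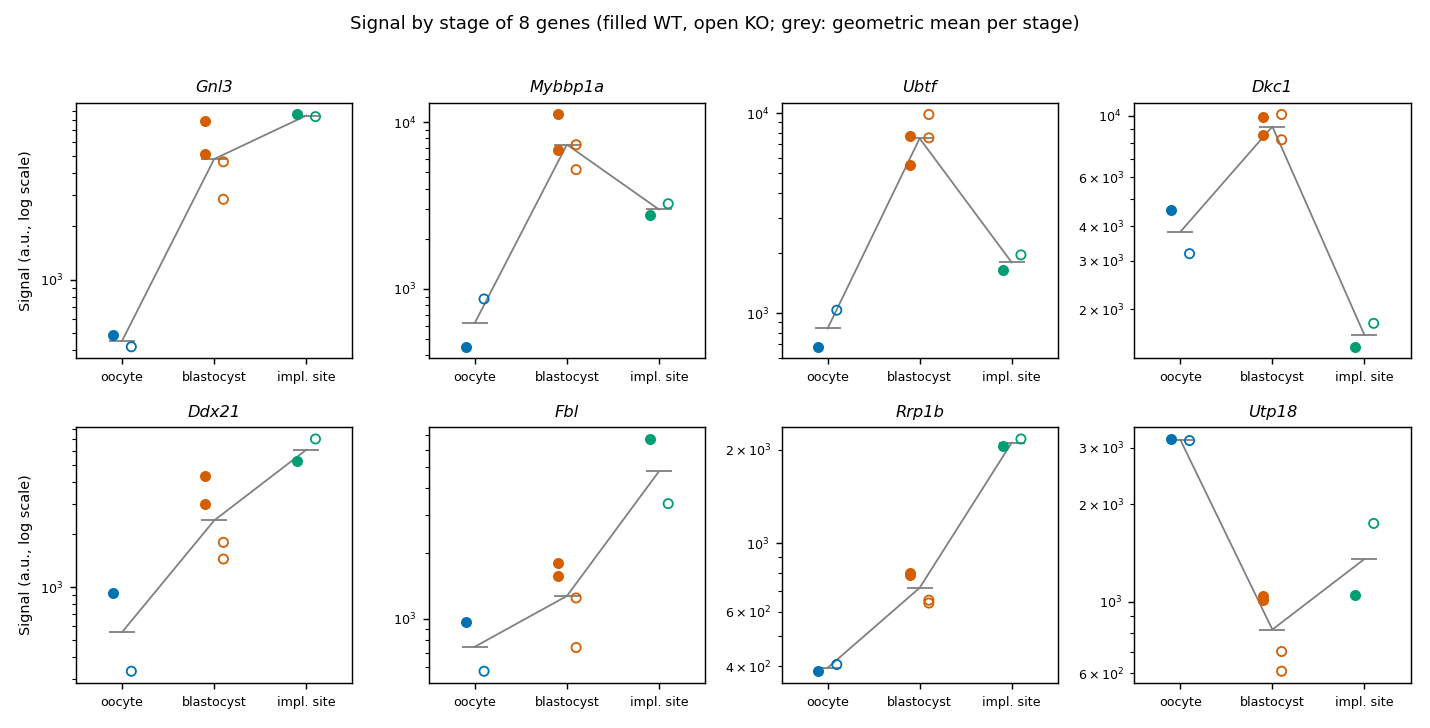
Signal on each array of 8 genes across oocytes, blastocysts and implantation sites, one panel per gene, with a log axis; points are single arrays (filled WT, open KO) and grey lines join the stage means on the log scale. Gnl3 and Ddx21 are highest at implantation sites, Ubtf, Mybbp1a and Dkc1 are highest in blastocysts, and Utp18 is highest in oocytes.

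Of the other ribosome synthesis genes 3 were higher and 21 lower at implantation sites than in blastocysts. The rises were Naf1, an assembly factor of box H/ACA particles (2.25, SE 0.37), Las1l, an endonuclease of spacer processing (1.59, SE 0.31), and Rrn3, the initiation factor of polymerase I (1.01, SE 0.34). The largest falls were Ruvbl2 (-3.26), Wdr36 (-2.97), Nol12 (-2.35) and Ddx24 (-2.22). Among ribosomal proteins 3 were higher and 11 lower, with a median of -0.45.

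Implantation sites against oocytes used the same oocyte and implantation arrays as the earlier steps. Here 15 of the 47 genes were higher and 5 lower, 31.9% and 10.6%, where 20.5% and 16.6% of all genes were. The median was 0.71, against -0.06 over all genes. Emg1 was at least 12.8-fold higher (fitted 4.93), Polr1a at least 4.18-fold and Bysl at least 3.39-fold. Gnl3 was 18.8-fold higher (4.23, SE 0.39, adjusted p = 2.13e-05) and Fbl 6.41-fold (2.68). Polr1c (3.85) and Ddx21 (3.45) also rose, with their KO oocyte array at control level.

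Those lower than in oocytes were Mphosph10 (-1.78, SE 0.38, adjusted p = 0.00326), Imp4 (-1.69), Dkc1 (-1.24), Utp18 (-1.23) and Utp20 (-1.19). Imp4 read 1503 and 1141 in oocytes, 611, 1098, 988 and 562 in blastocysts and 300 and 549 at implantation sites. All but Dkc1 belong to the small subunit processome. The falls numbered 1 with a common median (1589 of the 11746 genes), 1 with probe sets averaged (1519 of 9849 genes) and 2 without the intensity trend (1814 of the 11746 genes). Without the WT oocyte array the median was 0.59 against -0.21 over all genes, and without the KO oocyte array 0.84 against 0.09. Without the KO implantation array the median was 0.44 against 0.27 over all genes, so that 1 array took the gap from 0.77 to 0.17, and over the settings it reached up to 1.27. With probe sets averaged the median was 0.29. Of the further probe sets of the 20 called genes, 12 of 20 had the same direction. At least 1 pointed the other way in Polr1a, Ubtf, Dkc1, Utp6, Mphosph10, Imp4, Rrp1b and Ncl. Among the falls, such a probe set gave 0.94 for Mphosph10, 1.52 for Imp4 and 4.90 for Dkc1. That of Polr1a gave -0.46. The other ribosome synthesis genes were 36 higher and 10 lower, and the ribosomal proteins 37 higher and 0 lower (limma).

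The KO was compared with the WT within blastocysts, the stage with replicates, which addresses the study's question of what the loss of connexin 43 changes. None of the 47 genes passed in either direction (limma on the 4 blastocyst arrays, smallest adjusted p = 0.159), where 0.102% of all genes were higher and 0% lower. The KO mean was below the WT mean for 31 of 47 genes, with a median of -0.17, against -0.01 over all genes. At an unadjusted p under 0.05, 3 were higher and 7 lower, where 8.77% and 6.71% of all genes were. Scaling to a common median moved the median of these genes to -0.42 and that of all genes to -0.26. When the array labelled WT replicate 2 was left out, the 47 had a median of -0.31, against -0.06 over all genes, and 294 of the 11746 genes were higher and 22 lower, with 0 of the 47 (limma). Ratios of 3' to 5' signal, which bear on RNA quality, moved with genotype but in opposite directions. The Actb ratio was 25.7 and 39.0 in the KO and 69.3 and 69.1 in the WT, and the Gapdh ratio 11.2 and 11.8 against 7.27 and 7.71. The part of RNA quality in these values was not tested.

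The 7 lower genes are named with their values and did not pass after adjustment. Noc3l, a large subunit factor, read 133 and 387 on the KO arrays and 1221 and 1155 on the WT arrays (-2.39, SE 0.58, unadjusted p = 0.00303), and Polr1b, the second largest polymerase subunit, read 55.9 and 125 against 573 and 517 (-2.71, SE 0.72, unadjusted p = 0.00494). Bop1 read 139 and 145 against 766 and 335 (-1.83, SE 0.66). All 3 were at control level on both KO arrays, where that level itself was 395 and 560 against 199 and 219 in the WT, so their KO values are bounds.

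The other 4 were bright in both genotypes. Ddx21 read 1802 and 1448 on the KO arrays, below the 4308 and 2967 of the WT (-1.15, SE 0.32), 2.21-fold lower, while its other probe set read higher in the KO (0.52). Ddx18 was 1.85-fold lower (-0.89, SE 0.30), Rrs1 1.76-fold (-0.81, SE 0.30) and Gnl3 1.75-fold (-0.81, SE 0.35). In all of these both KO arrays were below both WT arrays. The 3 genes that read higher, none passing, were Nol9 (1.01, SE 0.31, unadjusted p = 0.00987), Ltv1 (0.86, SE 0.35) and Nop10 (2.21, SE 0.94). Nol9 and Ltv1 were higher on both KO arrays. Nop10 overlapped between genotypes, since the difference came from the 135599 of KO replicate 2, and its other probe set gave -0.51. Without KO replicate 1, Nop10 passed, but that fit has 1 KO array, the one at 135599, and assumes that it varies like the WT arrays.

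**Figure D4:**
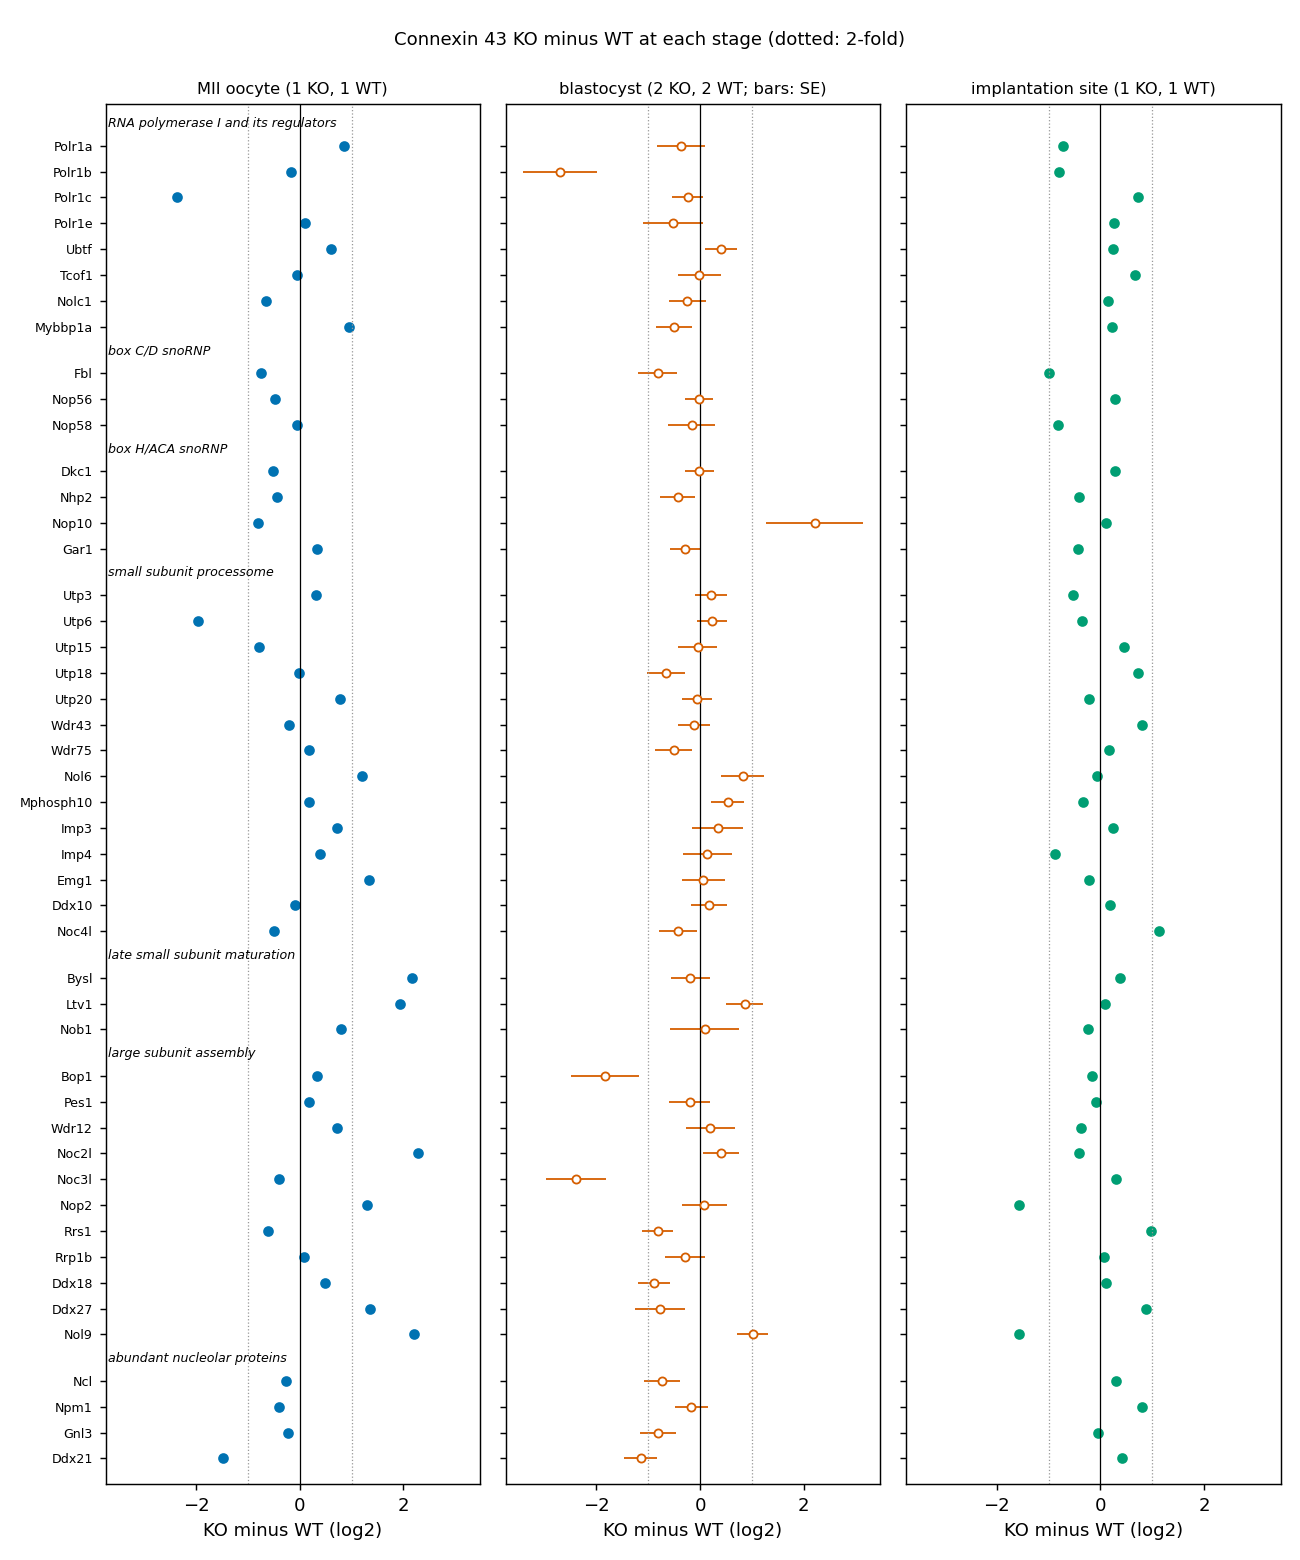
Log2 difference KO minus WT of each of the 47 genes in oocytes, blastocysts and implantation sites, one panel per stage; points in blastocysts have standard error bars from the fit, the other stages have 1 array per genotype and no error, and dotted lines mark 2-fold. In blastocysts Polr1b, Noc3l and Bop1 lie farthest to the left and Nop10 farthest to the right, with none passing.

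Counting only whether the genotypes overlapped, both KO arrays were below both WT arrays for 15 of 47 genes (25.3% of all genes) and above for 6 (23.8% of all genes). The 15 were Polr1a, Polr1b, Polr1c, Fbl, Gar1, Utp18, Bop1, Noc3l, Rrs1, Rrp1b, Ddx18, Ddx27, Ncl, Gnl3 and Ddx21. By role, the KO mean was below the WT in 7 of 8 polymerase genes (median -0.31), 7 of 11 large subunit genes (-0.30) and 4 of 4 abundant nucleolar proteins (-0.77), and above it in 8 of 14 processome genes (0.10). Differences between roles were not tested. Replicates of a genotype differed by a median of 0.42 in the KO and 0.42 in the WT over these genes, and of 0.41 and 0.53 over all genes. Summed signals of immune and blood markers were 8439 and 14479 on the KO and 1456 and 4836 on the WT blastocyst arrays. The number above control level, of 7 measured, did not follow the sums, at 2 and 2 on the KO and 4 and 2 on the WT. Csf1r was the largest part on each. Tyrobp exceeded control level on every blastocyst array, reading 1178 and 1842 (KO replicates), then 287 and 580 (WT replicates). Ptprc, C1qa and Hba-a1 were at control level on every one, and Cd68 and Lyz2 on all but the first WT array. The part of such markers in the values of the 47 genes was not tested. Of the 101 other ribosome synthesis genes 78 were lower in the KO, with a median of -0.30, and 0 passed (limma), with 2 higher and 7 lower at an unadjusted p under 0.05.

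In oocytes, with 1 array per genotype and no test, 8 of 47 genes were at least 2-fold higher in the KO and 3 lower, where 23.9% and 12.3% of all genes were. The median was 0.09 over these genes and 0.09 over all. Ratios of 3' to 5' signal were lower on the KO array, at 6.68 against 33.4 for Actb and 2.41 against 10.1 for Gapdh. The part of RNA quality in these differences was not tested. Above control level on the brighter array, the higher ones were Noc2l (592 against 122, the latter at control level), Nol9 (846 against 184), Ltv1 (1383 against 362), Nop2 (658 against 268) and Nol6 (741 against 322). Bysl, Emg1 and Ddx27 were at control level on both arrays and get no fold. Polr1c (97.8 against 509), Utp6 (118 against 463) and Ddx21 (332 against 927) read lower, but their KO signals were at control level (334), so their folds are uncertain. Gja1, whose representing probe set was at control level on both arrays and whose further ones disagreed, does not bear on the labels here. The split depends on scaling: 4 were higher with quantile normalization, and 4 higher and 11 lower with a common median, where the higher share of all genes at least 2-fold apart changed from 66% to 46.6% and 32.7%.

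At implantation sites, again 1 array each, 1 gene was at least 2-fold higher in the KO, Noc4l (8439 against 3827), and 2 were lower, Nop2 (222 against 661) and Nol9 (201 against 597). Over all genes 6.12% were higher and 15.9% lower, and the medians were 0.12 and -0.13. With a common median 8 were higher, and the higher share of all genes at least 2-fold apart changed from 27.9% to 61.4% (42.3% with quantile normalization). Nol9 and Nop2, both higher in the KO oocyte, were thus lower in the KO at implantation sites.

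A KO effect common to the 3 stages was fitted over all 8 arrays, and 0 of 11746 genes passed (limma, smallest adjusted p = 0.707), with 3.64% higher and 3.28% lower at an unadjusted p under 0.05. Among the 47 genes, Fbl (-0.84, SE 0.27, unadjusted p = 0.00875), Ddx21 (-0.84), Polr1b (-1.59) and Ltv1 (0.94) were under that unadjusted threshold. Polr1b, Fbl and Gnl3 were lower on every KO array than on every WT array of the same stage (5.94% of all genes), and Ltv1 was higher on every one (4.54% of all genes). In oocytes and at implantation sites, in that order, the differences were -0.75 and -0.99 for Fbl, -0.16 and -0.80 for Polr1b, whose oocyte arrays were both at control level, -0.23 and -0.04 for Gnl3, and 1.93 and 0.10 for Ltv1. Those of Gnl3, and that of Ltv1 at implantation sites, were thus small, with no error to set them against.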

How the data were processed

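The authors deposited the signal intensity of all 8 arrays in 1 table, the work of MAS5 per the submitters' processing notes (version not given in the sources used here), and 0 of its columns were left unmapped. The 2% trimmed mean was equal on every array, and no further scaling was applied. Of 45101 probe sets 34945 were annotated to 1 gene, and 932 to several, 9160 to none and 64 controls were left out. The upper 50% by mean log2 signal (151 or more) were tested with limma 3.58.1 in R 4.3.3 (lmFit, eBayes with intensity trend, two-sided, Benjamini-Hochberg over 11746 genes, adjusted p under 0.05): the 4 blastocyst arrays for genotype, and all 8 for stage with genotype as a term. The fits were tested on simulated data. For a gene at control level on both arrays of a stage, a fold is a lower bound, the bright stage's mean over the mean of the brightest Bacillus controls of those arrays, and no fold is given where the brighter stage was at control level on any array too. Where single arrays were compared, at least 2-fold was counted.

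The genes, lists, motifs and tests were chosen with earlier results of these data known. Named genes followed a rule: those passing (for stages at most 4 per role, by size), those at an unadjusted p under 0.05 in blastocysts, those 2-fold apart and above control level between single arrays, the 2 brightest per role, up to 4 rises and 4 falls of other pathway genes, and Gja1. Others named fall outside it and were chosen after their values were seen. Depth has no count on arrays, and their number limits the precision. Alternatives were quantile normalization, a common median, a pseudocount of 50, no filter, the upper 30%, the mean of all probe sets, probe sets without suffix, no intensity trend, a replicate block, 6 groups and leaving out each array or stage. Plots used matplotlib 3.10.9 in Python 3.11.15.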

Additional observations from a re-analysis of the deposited data

Results flagged for a closer look

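Nol9 and Nop2 read higher in the KO at 1 stage and lower at another. Nol9 was 2.20 higher on the log2 scale in the KO oocyte, and at the implantation site it was lower (-1.57). In KO blastocysts it was 1.01 higher and did not pass (limma, adjusted p = 0.213). Nop2 was 1.30 higher in the KO oocyte and lower at the implantation site (-1.57), with 0.08 in blastocysts. Of all genes, 23.9% were at least 2-fold higher in the KO oocyte and 15.9% at least 2-fold lower at the KO implantation site. The difference between stages was not tested, because 2 of the stages have a single array for each genotype.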

How the results depend on the processing

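Over 21 counts and medians, 154 of 183 values under other scalings, filters, probe sets, models and left-out stages stayed within 1.5 times the count or 1 SD of the median, and 29 moved. With an array left out 90 of 108 stayed and 18 moved. Some of these values could not move by construction, so the counts overstate stability. Medians are the same without the intensity trend, with the replicate block and with 6 groups. They are also the same when the array left out belongs to a stage outside the comparison. Of 1225 values for single genes, left-out arrays included, 1221 kept their direction and 134 no longer passed. The causes were not tested, except that a setting with fewer probe sets tests fewer genes. Reversed were Nop10 in blastocysts (-0.51) and Nol6 for blastocysts against oocytes (-0.56) with probe sets without suffix, and Dkc1 for implantation sites against oocytes (0.29) and Utp6 in oocytes (0.48) with the mean of all probe sets.

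With a common median, the median was -0.42 for KO against WT in blastocysts, -0.21 for the common KO effect, 1.10 for blastocysts against oocytes, -0.12 (6 lower) for implantation sites against blastocysts, 0.90 (1 lower) for implantation sites against oocytes, -0.45 (4 higher, 11 lower) between oocytes and 0.53 (8 higher) between implantation sites. With the mean of all probe sets it was 0.88, -0.35 and 0.29 (1 lower) for the stage steps in that order. Between implantation sites it was -0.040 (0 higher, 5 lower), where 541 of 9849 genes were higher and 1585 lower. Probe sets without suffix gave 0.98 (4 lower) and -0.61 (6 higher) for the first and second step, and -0.15 between implantation sites. Quantile normalization gave -0.10 (4 higher) between oocytes. Without the intensity trend 7 were lower at the second step and 2 at implantation sites against oocytes. Without blastocysts the common KO median was 0.076.

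Leaving out each array in turn gave, for KO against WT in blastocysts, 0 to 1 higher, 0 lower and medians of -0.31 to -0.11, and for the common effect 0 higher, 0 lower and -0.13 to 0.01. Blastocysts against oocytes gave 16 to 26 higher, 1 to 2 lower and 1.06 to 1.47, implantation sites against blastocysts 1 to 6 higher, 4 to 12 lower and -0.61 to -0.25, and implantation sites against oocytes 13 to 17 higher, 2 to 6 lower and 0.44 to 1.01. Counts over all genes in the stage comparisons moved in these fits too, and a fit without an oocyte or implantation array has 1 array of that stage. With the replicate number as a block, 0 of the 47 genes were higher and 0 lower in blastocysts. The median stayed at -0.17, which the block cannot change. Over all genes 91 were higher and 1 lower in place of 12 and 0. The labels do not say whether these numbers pair the samples. The difference between KO replicates had a correlation of 0.0182 with that between WT replicates over 11746 genes, which are not independent replicates. That value cannot decide whether the samples were paired.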
